A study of Mus musculus with 4 samples.

Results

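Public TCRα chains, meaning chains that several animals make independently, were followed across 4 spleen libraries. A chain was defined by its V segment (mostly TRAV), its TRAJ segment and the amino acid sequence of its CDR3. The CDR3 is the loop that is formed where V joins J. Chains were selected on presence in all 4 libraries, and 2343 of 99426 in-frame TCRα chains (2.36%) met that rule. A further 4085 chains were found in 3 libraries, 11548 in 2 and 81450 (81.9%) in 1 library. Presence is therefore the value that chose the members, and properties that go with being found (abundance, number of nucleotide sequences, simplicity of the join) are compared with those of other chains as a description with no test. Tests are given between the genotypes, which the rule treats alike. Among TCRβ chains, whose joins hold a D segment as well, 2687 of 241627 in-frame chains (1.11%) were found in all 4 libraries.

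The study asked whether loss of TET2 and TET3, enzymes that oxidize 5-methylcytosine, changes the TCR repertoire of CD4 T cells. The libraries came from 2 wild type (WT) C57BL/6 mice and 2 Tet2/3 DKO mice (Tet2-/- Tet3 flx/flx CD4Cre) with an average age of 25 days. The cells were live splenic CD4+ CD25- TCRβ+ cells, activated and naïve together, from which cells binding the aGalCer-CD1d tetramer (iNKT cells) had been sorted out. The DKO mice lack Tet2 in every cell from the germline on, while Tet3 is removed by CD4-cre from the double positive thymocyte stage, the stage at which TCRα rearranges, so TET3 was still present earlier in development. The tables hold TCR chains only, so the surface markers of the sort could not be checked against them. Each library started from RNA, and more cells with a chain and more TCR RNA per cell cannot be told apart in its reads.

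A TCRα chain is made without a D segment: RAG cuts a TRAV and a TRAJ segment on the same locus, nucleases trim the ends, terminal deoxynucleotidyl transferase (TdT) may add bases that no template encodes, and the ends are ligated. A join with little trimming and no added bases can be made again and again in different cells and animals, and different joins can encode the same amino acids. The locus lies on mouse chromosome 14, with the TRAV segments before the TRAJ segments, and some invariant chains made on it define T cell lineages that see lipids or vitamin metabolites in place of peptides.

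The joins themselves show what the public chains were made of. The public chain with the most nucleotide sequences, TRAV7-2 with TRAJ22 and the CDR3 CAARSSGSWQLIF, was written in 14 different ways over the 4 libraries. Its 6 most read sequences are shown 5′ to 3′ over the whole CDR3, with bases between the V end and the J start in capitals. Both ends were first moved back past every mismatch close to the join, so a capital can still match a segment. Inserted bases of the sequences shown are counted in this way.
TRAV7-2 TRAJ22 variant A: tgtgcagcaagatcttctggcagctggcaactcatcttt
TRAV7-2 TRAJ22 variant B: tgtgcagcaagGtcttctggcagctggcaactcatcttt
TRAV7-2 TRAJ22 variant C: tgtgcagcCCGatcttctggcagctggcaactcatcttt
TRAV7-2 TRAJ22 variant D: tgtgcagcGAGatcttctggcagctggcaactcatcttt
TRAV7-2 TRAJ22 variant E: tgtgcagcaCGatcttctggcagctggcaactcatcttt
TRAV7-2 TRAJ22 variant F: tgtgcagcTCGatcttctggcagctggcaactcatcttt

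The 6 sequences differ in the alanine and arginine codons at the join and nowhere else. Variant A holds no inserted base and was the most read, with 95 reads in WT 1, 120 in WT 2, 153 in DKO 1 and 134 in DKO 2. Variant B, with 1 inserted base, had 37, 16, 34 and 62 reads in the same order. The variants with 3 inserted bases were patchier. Variant C had 31 reads in WT 1, 11 in WT 2, 0 in DKO 1 and 16 in DKO 2. Variant D was found in WT 2 (5 reads) and DKO 2 (21 reads). Of the capitals of variant D only the first is a mismatch to V, and it differs from variant A by 1 base. The chain as a whole was even, with 180, 170, 202 and 240 reads in WT 1, WT 2, DKO 1 and DKO 2.

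The chain with the next largest number of sequences, TRAV19 with TRAJ57 and the CDR3 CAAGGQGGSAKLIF, is shown because none of its 6 most read sequences was free of inserted bases. It had 13 nucleotide sequences in all, and its glycine codons at the join absorbed the differences.
TRAV19 TRAJ57 variant A: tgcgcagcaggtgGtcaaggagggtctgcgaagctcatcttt
TRAV19 TRAJ57 variant B: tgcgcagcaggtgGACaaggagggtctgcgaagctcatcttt
TRAV19 TRAJ57 variant C: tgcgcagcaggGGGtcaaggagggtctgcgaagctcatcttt
TRAV19 TRAJ57 variant D: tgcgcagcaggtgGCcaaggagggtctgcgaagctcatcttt
TRAV19 TRAJ57 variant E: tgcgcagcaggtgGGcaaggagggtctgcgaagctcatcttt
TRAV19 TRAJ57 variant F: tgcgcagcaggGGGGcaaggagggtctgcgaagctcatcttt

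Variant A, with 1 inserted base, had 0 reads in WT 1, 25 in WT 2, 23 in DKO 1 and 23 in DKO 2. Variant B, with 3, had 13, 11, 13 and 28 reads in that order. Variant F carries 4 inserted bases and was read 9 times in WT 2 and 12 times in DKO 1. The chain was present in all 4 libraries at 29, 81, 74 and 91 reads, although the sequence read most was absent from WT 1.

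Another chain of many sequences, TRAV7-2 with TRAJ15 and the CDR3 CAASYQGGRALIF, had 12 nucleotide sequences, which spelled the alanine and serine codons at the join in different ways.
TRAV7-2 TRAJ15 variant A: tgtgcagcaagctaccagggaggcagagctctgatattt
TRAV7-2 TRAJ15 variant B: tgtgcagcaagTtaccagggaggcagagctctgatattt
TRAV7-2 TRAJ15 variant C: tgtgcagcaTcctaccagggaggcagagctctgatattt
TRAV7-2 TRAJ15 variant D: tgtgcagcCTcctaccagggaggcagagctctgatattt
TRAV7-2 TRAJ15 variant E: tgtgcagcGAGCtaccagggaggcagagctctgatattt
TRAV7-2 TRAJ15 variant F: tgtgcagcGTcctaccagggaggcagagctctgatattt

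Variant A, without inserted bases, had 69 reads in WT 1, 66 in WT 2, 90 in DKO 1 and 150 in DKO 2. Variants B and C, with 1 inserted base each, were also in all 4 libraries, B at 14, 16, 37 and 48 reads and C at 22, 15, 17 and 31 reads. Variant E, with 4 inserted bases, had 15 reads in DKO 1 and none elsewhere. Of its capitals only the first is a mismatch to V, and it differs from variant A by 1 base. Whether such a sequence was a join of its own or an error in copying or reading variant A was not tested. In this chain and in the TRAJ22 chain the uninserted sequence led in each of the 4 libraries.

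Inserted bases were fewer in public chains than in chains of 1 library. Counting the bases between the V end and the J start as the clone tables set them, public chains held 1.02 ± 0.011 inserted bases (mean ± SD over the 4 libraries, n = 4) and chains of 1 library 2.85 ± 0.037, a difference of -1.83 ± 0.041. The 4 libraries hold the same public chains, so this SD is not that of independent sets. The mean was lower at each step of sharing, from 2.85 in chains of 1 library to 1.70 in chains of 2, 1.36 in chains of 3 and 1.02 in public chains. Joins with no inserted base made up 50.5% ± 0.90 of public chains, against 39.1% ± 0.58 of chains in 3 libraries, 30.7% ± 0.63 of chains in 2 and 17.6% ± 0.25 of chains in 1. At the other end, 0.405% of public chains and 11.1% of chains of 1 library held 6 or more inserted bases. The alignment can run through a chance mismatch. With both ends moved back past every mismatch close to the join, the difference was -2.04.

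**Figure D1:**
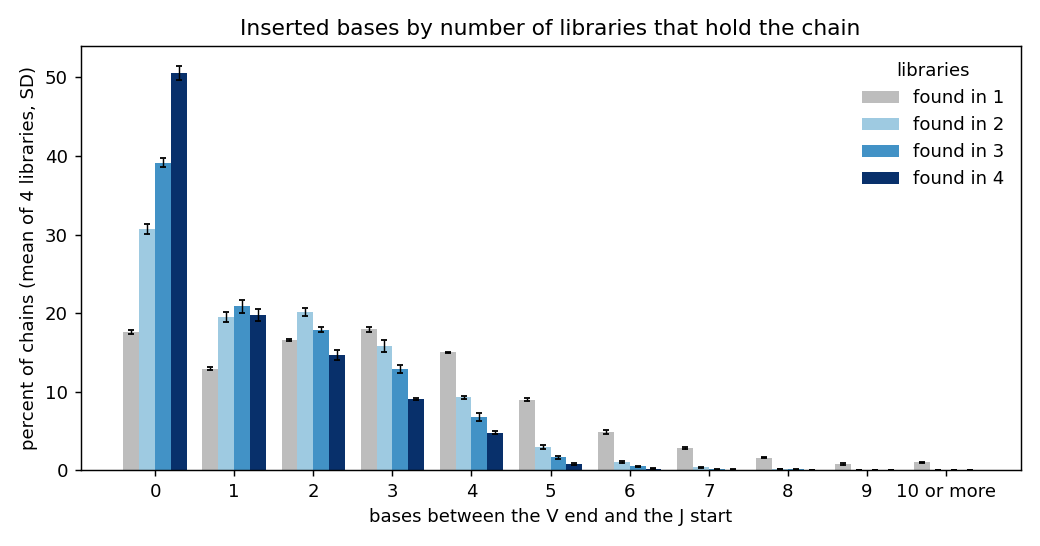
Percent of in-frame TCRα chains (vertical axis) with each number of bases between the V end and the J start (horizontal axis), for chains found in 1, 2, 3 or 4 libraries. Bars are means of the 4 libraries and error bars are SD; the bar for 0 inserted bases stands at 17.6% for 1 library and at 50.5% for 4.

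The ends of the segments were also better preserved. Public chains had lost 1.57 ± 0.013 bases from the V end, against 2.41 ± 0.076 in chains of 1 library (n = 4 libraries). From the J end they had lost 2.38 ± 0.023 bases, against 3.29 ± 0.098. Both losses were lower at each step over chains of 1, 2, 3 and 4 libraries.

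CDR3 loops of public chains were slightly shorter and much more alike in length. Their mean length was 13.3 amino acids against 13.5 ± 0.058 in chains of 1 library (n = 4), a difference of -0.230 ± 0.058, while the SD of length among chains was 0.963 amino acids against 1.48. Loops of 13 or 14 residues made up 72.0% of public chains and 55.1% of chains of 1 library. Long loops of 15 or more residues were 8.15% against 23.0%, and short loops of 11 or fewer were 2.18% against 7.81%. Public chains were thus less frequent in both tails, and none was shorter than 10 or longer than 17 residues.

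**Figure D2:**
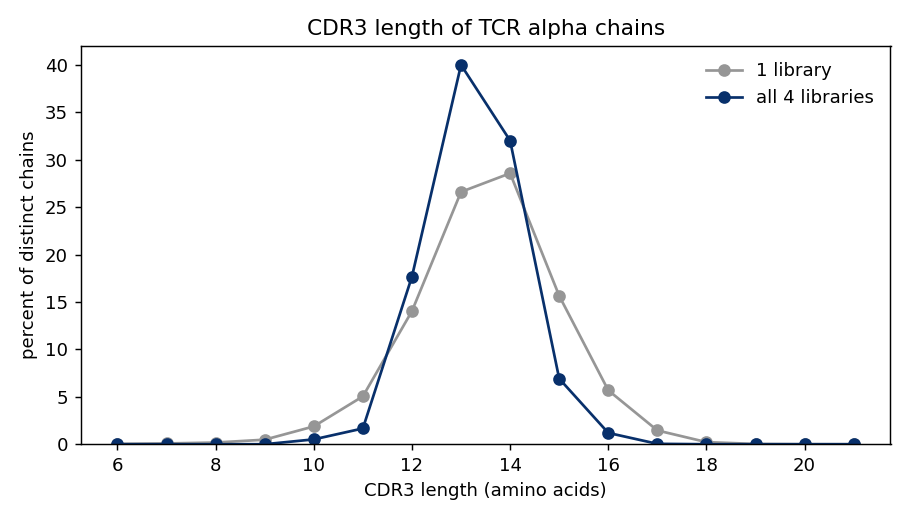
CDR3 length in amino acids (horizontal axis) against the percent of distinct TCRα chains (vertical axis) for chains found in all 4 libraries and in 1 library. The public chains peak at 13 residues (40.0%) and reach 32.0% at 14, and both tails lie below those of the chains of 1 library.

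Segment choice differed as well, but the differences in length and insertion were also present within the same V-J pairs. For 2341 public chains, the pair also held at least 10 chains of 1 library, and against those the public chain was shorter by a mean of 0.178 amino acids and held 2.18 to 2.21 fewer inserted bases, depending on the library.

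Public chains were on average encoded by more nucleotide sequences. Within a library, public chains had 1.63 ± 0.093 different CDR3 nucleotide sequences and chains of 1 library 1.03 ± 0.0051 (n = 4). In public chains 42.5% ± 4.6 had 2 or more, against 2.66% ± 0.45. Chains with more reads can show more sequences, so the count was repeated among chains of 5 to 20 reads, where 43.0% ± 3.1 of public chains and 6.79% ± 0.91 of chains of 1 library had 2 or more. The same share was 20.0% in chains of 2 libraries and 30.7% in chains of 3.

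Over the 4 libraries together the 2343 public chains comprised 7445 nucleotide sequences, a mean of 3.18 per chain and at most 14. For 245 chains (10.5%) there was 1 sequence, and 2098 (89.5%) had 2 or more. An identical sequence was present in all 4 libraries for 1224 chains (52.2%), in at most 3 for 741 and in at most 2 for 346. In 32 chains no sequence was shared by any libraries, so that each library reached the same protein by a join of its own. Those 32 chains carried a mean of 2.11 inserted bases, and the 1224 with a sequence common to all libraries carried 0.724. Nearly as many sequences were private as shared: 3431 of the 7445 (46.1%) were read in 1 library only. Sequences that differ by 1 base were counted separately. How many of them were errors of amplification or sequencing was not tested.

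Any pair of libraries shared an identical sequence for 73.8% to 76.9% of the public chains. The lowest share was between WT 1 and DKO 1 and the highest between WT 2 and DKO 2, so pairs within a genotype (74.8% for WT and 76.7% for DKO) did not stand apart from pairs across genotypes. Reads carried over between libraries would also give identical sequences. The most read sequences of each library were therefore looked up in the others. Of the 20 most read TCRα sequences of a library, 12 in WT 1, 9 in WT 2, 10 in DKO 1 and 16 in DKO 2 were absent from the other libraries. The most read of these had 3393, 328, 401 and 3389 reads in that order. The 20 sequences together had 993, 2277, 3066 and 49 reads in the other libraries. Leaving out every sequence that another library held at 100 or more times its reads removed 12 clones with 31 reads in all, and 2342 public chains were left.

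Out-of-frame joins, which cannot make a TCRα chain, were compared in the same libraries. Among 22299 out-of-frame joins compared by nucleotide sequence, 3 (0.0135%) were in all 4 libraries, and all 3 lacked inserted bases. Among in-frame joins compared in the same way, 1362 of 120725 (1.13%) were in all 4. Out-of-frame joins were fewer (4910 to 6417 per library), so in-frame joins were drawn read by read down to the same number in each library. In 20 such draws a mean of 93.4 in-frame joins (range 78 to 107), or 0.447%, were in all 4. A draw by reads favours joins with many reads, so the numbers of joins were made equal but not their abundance. In out-of-frame joins found in 1 library, 24.03% lacked inserted bases, and in in-frame joins of 1 library 18.9% did.

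The TRAV7-2 segment led the public repertoire. TRAV7-2 (chr14:53390633-53391136, GRCm38) contributed 584 public chains, 24.9% of all public chains against 6.02% of chains of 1 library, and 8.29% of its 7046 chains were public. Its share of the reads of public chains was 32.4% in WT 1, 33.0% in WT 2, 34.8% in DKO 1 and 32.8% in DKO 2. TRAV7-2 was not a segment of few insertions, since its public chains held 1.52 inserted bases and its chains of 1 library 3.62, both above the means over all segments.

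Among the 37 V segments with at least 1% of all chains (TRAV segments and TRDV1), the next highest public percentages were those of TRAV6-6 (4.73%), TRAV14N-3 (4.05%), TRAV14-2 (3.42%) and TRAV7-5 (3.28%). These segments lie between positions 53370077 and 53641225 of chromosome 14. The lowest were TRAV13-2 (0.354%), TRAV13N-1 (0.382%) and TRAV12D-3 (0.383%), with 4 public chains each out of 1131, 1048 and 1045. TRAV13-2 lies within the same stretch of the chromosome (from position 53634888), and TRAV13N-1 and TRAV12D-3 lie before it. The 5 segments with most public chains held 49.3% of public chains and 19.9% of chains of 1 library. In all, 58 of the 101 V segments found, TRDV segments included, had a public chain. Many TRAV segments occur as near-identical copies, and reads whose V hit was shared between segments made up 58.0% to 63.6% of the reads of public chains, so the copy named for a chain is uncertain. Merging the D and N copies with the plain copy gave 2689 public chains.

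**Figure D3:**
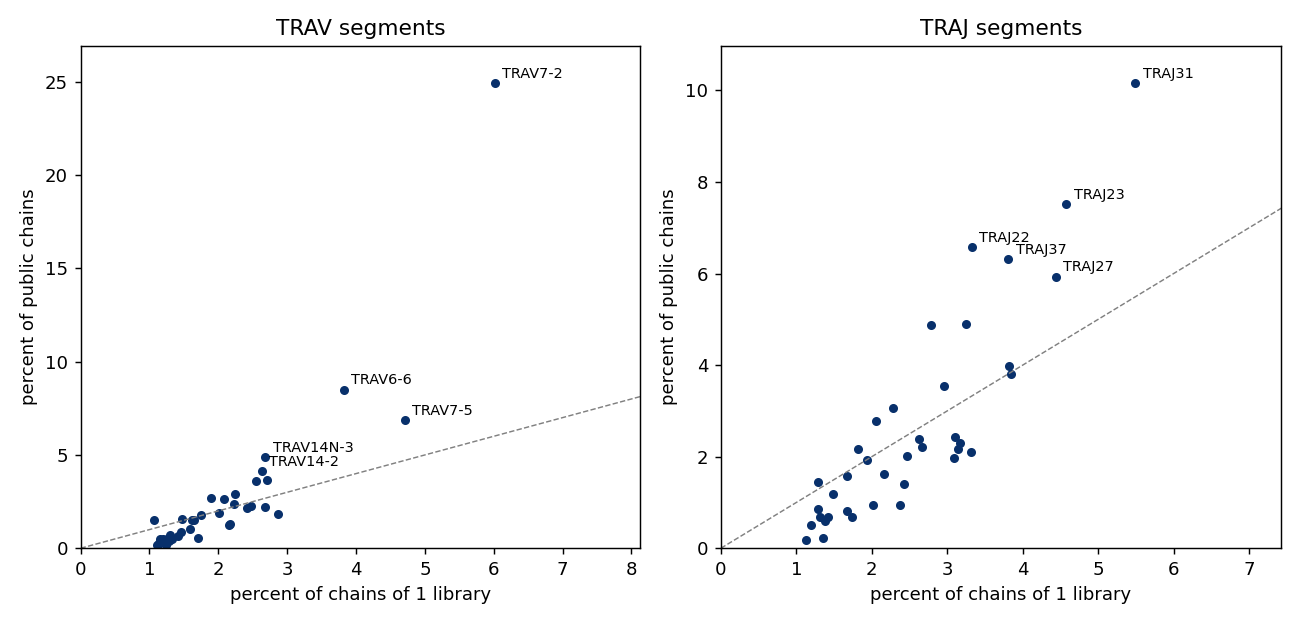
Share of public chains (vertical axis, percent) against share of chains of 1 library (horizontal axis, percent) for each V segment (left, TRAV segments and TRDV1) and TRAJ segment (right) with at least 1% of all chains. The dashed line marks equal shares. TRAV7-2 lies farthest above the line, at 24.9% against 6.02%.

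TRAJ segments differed less. Among the 38 with at least 1% of all chains, TRAJ22 had the highest public percentage, 4.39% of its 3505 chains, followed by TRAJ31 (4.04%), TRAJ12 (3.84%), TRAJ37 (3.74%) and TRAJ23 (3.71%). TRAJ38 (0.399%), TRAJ45 (0.406%) and TRAJ32 (0.980%) had the lowest of these 38. Of 44 TRAJ segments found, 43 had a public chain. Position along the J cluster showed little difference, with a mean TRAJ number of 28.1 in public chains and 29.6 in chains of 1 library.

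The 4 V-J pairs with most public chains all used TRAV7-2. They were TRAV7-2 with TRAJ22 (47 of 310 chains public, 15.2%), with TRAJ15 (45 of 341, 13.2%), with TRAJ37 (44 of 317, 13.9%) and with TRAJ23 (43 of 307, 14.01%). Public chains came from 664 of the 3549 pairs found, and 295 pairs gave exactly 1.

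The residue at the join, encoded where the bases taken from V end, also differed. Asparagine was there in 6.54% of public chains and 2.92% of chains of 1 library, and aspartate in 8.80% and 5.09% (means of 4 libraries). Glycine was there in 15.3% and 12.8%. Valine (3.45% against 6.58%), glutamate (4.52% against 6.69%) and leucine (2.02% against 4.08%) were less frequent in public chains. Serine (7.64% against 6.54%) and arginine (14.7% against 13.3%), which like leucine have 6 codons, were more frequent in public chains. Phenylalanine (0.128% against 1.17%) and tryptophan (0.309% against 1.34%), with 2 codons and 1, were less frequent. Methionine, which also has 1 codon, was more frequent (3.28% against 1.86%). Averaged over these opposite differences, the number of codons of the join residue was 3.84 in public chains and 3.87 in chains of 1 library.

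Reads spread over public chains unevenly. They made up 8.75% of the in-frame chains of WT 1, 7.20% of WT 2, 7.38% of DKO 1 and 6.67% of DKO 2, in the order of 26775, 32524, 31737 and 35137 chains, so the percentage was lower where more chains were read. Their median was 8, 11, 10 and 12 reads, and that of chains of 1 library was 3 in each library. A member had between 6 and 3109 reads over the 4 libraries, with a median of 45. Just inside the rule, 392 public chains (16.7%) had 1 read in at least 1 library. Just outside it, chains found in 3 libraries had a median of 18 reads in all and at most 500.

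How often a chain was found again is given as a description, since presence chose the members and the chains were not matched for reads. Of the chains present in the other 3 libraries, 63.4% were found in WT 1, 71.5% in WT 2, 70.3% in DKO 1 and 74.4% in DKO 2. Those found were the same 2343 public chains each time. Of chains present in just 1 of the other 3, 7.06% to 9.86% were found. Chains in both WT libraries were found in DKO 1 in 55.2% of cases and in DKO 2 in 58.4%. Chains in both DKO libraries were found in WT 1 in 47.6% and in WT 2 in 53.7%, and the least read library, WT 1, gave the lowest values.

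The question the design asks of the public chains is whether the genotypes carried them at different levels. Total TCRα reads were 172506 in WT 1, 216457 in WT 2, 195046 in DKO 1 and 287799 in DKO 2. Reads of public chains were 19.5% of these in WT 1 (95% Wilson interval 19.3 to 19.7), 18.7% in WT 2 (18.5 to 18.9), 19.4% in DKO 1 (19.2 to 19.6) and 17.8% in DKO 2 (17.6 to 17.9). The intervals cover counting error only, since reads without molecular identifiers are not independent molecules. The genotypes overlapped: the mean was 19.1% ± 0.57 in WT and 18.6% ± 1.1 in DKO (SD, n = 2 each), a log2 ratio of -0.04 (exact two-sided permutation test, p = 0.667). With 2 libraries per genotype the smallest p this test can give is 0.33. The public percentage of in-frame chains has the same 2343 chains as its numerator in every library, so it is given as a description: 7.98% ± 1.1 in WT and 7.03% ± 0.51 in DKO.

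**Figure D4:**
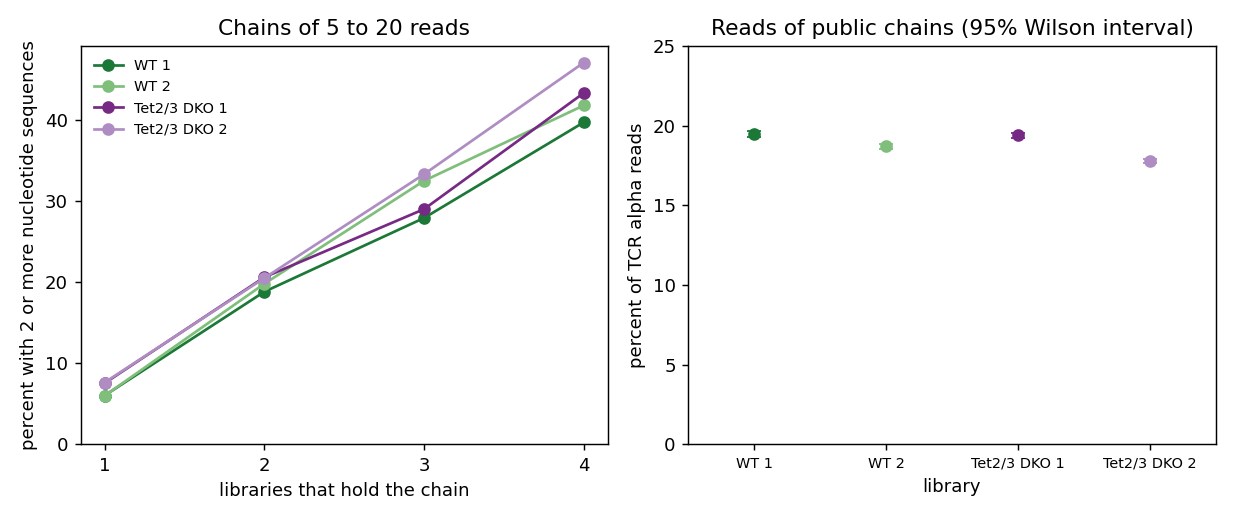
Left, percent of chains of 5 to 20 reads with 2 or more nucleotide sequences (vertical axis) by the number of libraries that hold the chain (horizontal axis), a line per library. Right, percent of TCRα reads that came from public chains in each library with its 95% Wilson interval; the 4 values lie between 17.8% and 19.5%.

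Joins without inserted bases took 59.1% of public reads in WT 1 and 59.0% in WT 2, and 57.3% in DKO 1 and 55.3% in DKO 2. These groups did not overlap (exact permutation test, p = 0.33, the smallest possible). The difference was not seen without the 10 most abundant public chains of each library, a run chosen after seeing the data. The values were then 56.4% and 58.2% in WT and 57.7% and 59.2% in DKO, lowest in WT 1 and highest in DKO 2. The genotypes overlapped (exact permutation test, p = 0.667). Counting each chain equally, 49.3% and 50.7% of public chains lacked inserted bases in WT and 51.5% and 50.5% in DKO.

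Chain by chain, few differences passed the test. Of all 15246 in-frame chains with at least 10 reads over the 4 libraries, edgeR's quasi-likelihood test called 81 (0.531%) at an adjusted p under 0.05. Of these, 53 were higher in DKO (0.348%) and 28 higher in WT (0.184%). The balance turned towards WT when either WT library was left out, so it is not read as a genotype result. Among the 2335 public chains tested 2 were called (0.0857%), 1 in each direction, which is below the share over all chains tested. An unadjusted p under 0.05 in edgeR was found for 12 public chains and for 737 of all 15246 chains tested. DESeq2 called 1 public chain and 19 of all chains tested. Membership required reads in both genotypes, while the chains tested with fewer libraries could be absent from a genotype. The shares of public chains and of all chains are therefore not alike in what they could show. Read counts varied widely between mice of a genotype, with a common dispersion of 2.80 over all chains tested and 0.319 over the public chains fitted alone.

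Both called chains were abundant in 1 mouse. TRAV21/DV12 with TRAJ58 and the CDR3 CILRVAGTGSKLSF had 3 reads in WT 1, 6 in WT 2, 4 in DKO 1 and 3096 in DKO 2 (log2 fold change DKO over WT 7.86 ± 1.56 SE, edgeR adjusted p = 0.000787). DKO 2 alone was high, and DKO 1 lay between the WT libraries. Its nucleotide sequences are shown because the abundant one was not the shared one.
TRAV21/DV12 TRAJ58, read in DKO 2: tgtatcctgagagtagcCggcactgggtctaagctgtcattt
TRAV21/DV12 TRAJ58, read in the other 3: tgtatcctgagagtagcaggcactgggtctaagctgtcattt

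All 3096 reads of DKO 2 had the sequence with 1 inserted base (capital), and the 13 reads of the other 3 libraries had the one without. Both encode the same alanine. Without DKO 2 the log2 fold change was -0.14, so the difference rested on that library. Without either WT library it stayed about as large, at 7.58 without WT 1 and 8.23 without WT 2, but was no longer called (edgeR adjusted p = 0.952 and 0.928). A fit without a library leaves a genotype with 1 library, which is assumed to vary like the other genotype. With the replicate number as a block the log2 fold change was 4.81 and not called (edgeR adjusted p = 0.262). The call was also lost at an unmoved log2 fold change of 7.86 with no filter on reads (adjusted p = 0.201) and with a minimum of 20 reads (0.748), while it was kept by DESeq2 (0.0479), with TMM (0.00433) and without DKO 1 (0.00361).

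The other called chain joined TRDV1, a V segment of the δ locus, to TRAJ37 in a CDR3 of 13 residues. It had 760 reads in WT 1, 8 in WT 2, 2 in DKO 1 and 8 in DKO 2 (log2 fold change -6.81 ± 1.64 SE, edgeR adjusted p = 0.0155). As shares of TCRα reads the genotypes did not overlap, although WT 2 (0.00370%) and DKO 2 (0.00278%) were close. Without WT 1 the log2 fold change was -0.93, so this difference rested on WT 1. It was -7.80 without WT 2 and -6.29 without DKO 1, about as large, but not called (edgeR adjusted p = 0.571 and 0.268). With the replicate block it was -4.42 and not called (edgeR adjusted p = 0.195). The call was also lost at log2 fold changes of -6.81 with no filter on reads (adjusted p = 0.328), -6.81 with a minimum of 20 reads (0.748) and -6.67 in DESeq2 (0.0913). It was kept with TMM (0.0361) and without DKO 2 (log2 fold change -7.67, adjusted p = 0.00261).

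The 10 public chains with the highest mean share ranged from nearly even over the libraries to very uneven. Among those without a library far above the rest was TRAV7-2 with TRAJ22 and the CDR3 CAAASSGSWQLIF, at 251 reads in WT 1, 321 in WT 2, 331 in DKO 1 and 292 in DKO 2. TRAV14D-1 with TRAJ13 and a CDR3 of 13 residues had 331, 243, 164 and 291 reads, a 2.28-fold range as shares of reads, with both WT shares (0.192% and 0.112%) above both DKO shares (0.0841% and 0.101%). TRAV7-2 with TRAJ15 and the CDR3 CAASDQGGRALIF had 155, 146, 149 and 194 reads. None of these 3 was called between genotypes by edgeR (adjusted p = 0.999 for each). The most read sequences of the TRAJ22 and TRAJ13 chains are shown as examples of joins with no inserted base.
TRAV7-2 TRAJ22, rank 2: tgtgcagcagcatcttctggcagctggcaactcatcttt
TRAV14D-1 TRAJ13: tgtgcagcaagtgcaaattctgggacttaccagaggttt

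Other chains among these 10 were high in 1 library, which was WT 1, DKO 1 or DKO 2. TRAV7-2 with TRAJ31 and the CDR3 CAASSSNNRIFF had 4 reads in WT 1, 21 in WT 2, 23 in DKO 1 and 1216 in DKO 2 (log2 fold change 5.16, edgeR adjusted p = 0.0777). TRAV7-2 with TRAJ30 gave a pair of such chains: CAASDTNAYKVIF had 371 reads in WT 1 against 74, 96 and 72 in WT 2, DKO 1 and DKO 2, and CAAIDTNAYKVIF had 551 in DKO 1 against 21, 23 and 21 in WT 1, WT 2 and DKO 2. The most abundant public chain was the TRDV1 chain in WT 1, the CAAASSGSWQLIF chain in WT 2, the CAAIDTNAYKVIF chain in DKO 1 and the TRAV21/DV12 chain in DKO 2.

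**Figure D5:**
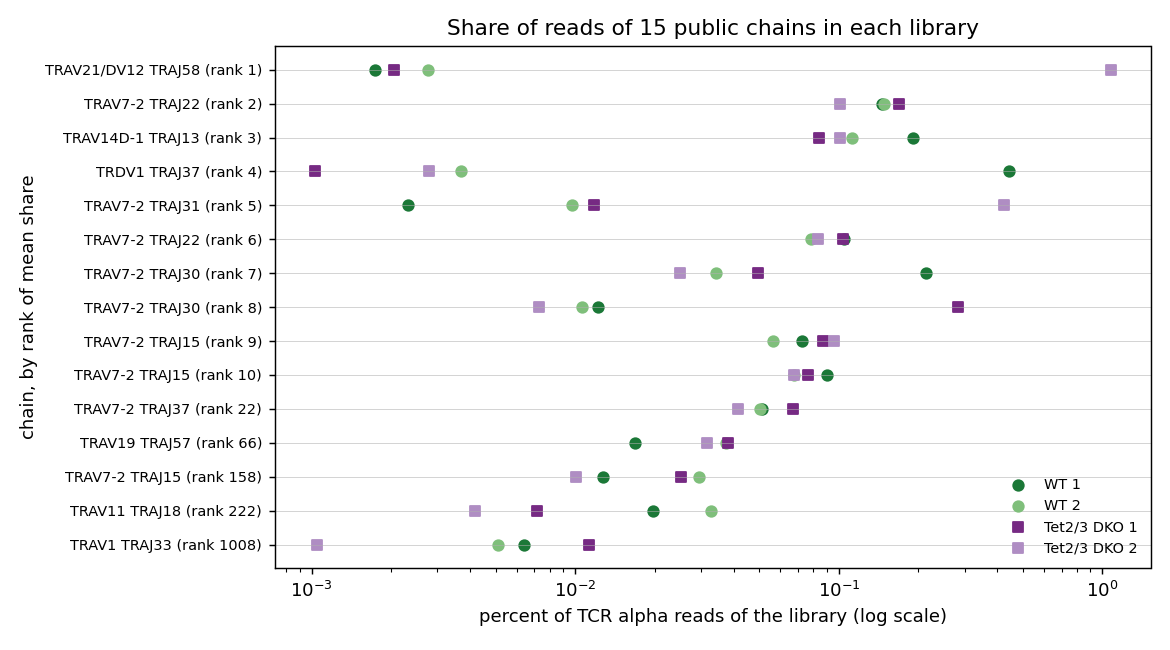
Percent of each library's TCRα reads (horizontal axis, log scale) for 15 public chains (rows, by rank of mean share), with circles for WT and squares for Tet2/3 DKO libraries. Ranks 1, 4, 5, 7 and 8 have 1 library far to the right, which is DKO 2, WT 1, DKO 2, WT 1 and DKO 1 in that order; ranks 222 and 1008 spread 7.87-fold and 10.8-fold without such a library.

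Over all public chains, 540 had a mean of 20 or more reads. Of these, 132 (24.4%) were within 2-fold in all 4 libraries as shares of reads, and 31 had a top library more than 5 times the next: 8 in WT 1, 5 in WT 2, 6 in DKO 1 and 12 in DKO 2. In those 31 chains the top sequence held a median of 99.8% of the reads of the chain in its top library, against 72.5% in the 132 even chains. The top sequence held over 90% of those reads in 23 of the 31 chains and in 39 of the 132. Over the 4 libraries both kinds had several sequences, with a median of 3 in the 31 chains and 4 in the 132.

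Of the chains known to define lineages, both of those looked for were public. The TRAV11-TRAJ18 chain of 15 residues with most reads (the invariant chain of iNKT cells has this form) was found at 34 reads in WT 1, 71 in WT 2, 14 in DKO 1 and 12 in DKO 2, although tetramer-binding cells had been sorted out. As shares of TCRα reads these were 0.0197% and 0.0328% in WT and 0.00718% and 0.00417% in DKO. The groups did not overlap, as was so for 33.6% of the public chains tested, and edgeR did not call it (log2 fold change -2.20 ± 1.71 SE, adjusted p = 0.744). TRAV1-TRAJ33 with the CDR3 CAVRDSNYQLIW, the form of the MAIT cell chain, had 11, 11, 22 and 3 reads in the same order, and edgeR did not call it (adjusted p = 0.999). The most read sequences of both had no inserted base.
TRAV11 TRAJ18: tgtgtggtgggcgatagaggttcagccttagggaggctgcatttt
TRAV1 TRAJ33: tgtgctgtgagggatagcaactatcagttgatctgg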

How the data were processed

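TCRα and TCRβ transcripts of 4 spleen samples were amplified by a 5'-RACE kit without molecular identifiers from 20 ng of RNA. The authors aligned, assembled and exported clones with MiXCR, and the submitters' processing notes name bcl2fastq 2.20.0, fastp 0.21.0 and mm10. The deposited tables give, for each clone, a read count, V and J hits, the CDR3 and reference points on the join. In-frame clones (no stop or frameshift) were summed per V segment (first hit, allele removed), J segment and CDR3 amino acids. Join properties came from the most read clone of each chain and library, with inserted bases taken as those between the V end and the J start. In printed sequences the V and J ends were moved back past every mismatch close to the join.

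The rule of membership and the lists were chosen with earlier results of these data known. Named chains were the 10 of highest mean share, the 5 with most nucleotide sequences, those called, the most abundant in each library and the invariant forms; named segments had the 5 highest or 3 lowest public percentages. All sequences of the TRAV21/DV12 chain were added after its values were seen. Genotypes were compared by exact permutation over libraries, and chains with at least 10 reads by edgeR 4.0.16 (R 4.3.3; glmQLFit, library size as total TCRα reads, Benjamini-Hochberg) with DESeq2 1.42.0 as an alternative. Tested on simulated data, the edgeR fit recovered most known changes at a low dispersion and almost none at the dispersion estimated from these libraries, so a chain that was not called is not shown to be equal between genotypes. SE was taken as the log2 fold change over the square root of F. The study describes the replicates as biological, and the permutation p-values compare 2 mice per genotype. The p-values of edgeR and DESeq2 use a spread estimated partly from all chains tested. They therefore do not measure the spread of a single chain between mice. Nothing states that equal replicate numbers mark a pair, and the deviations of equal numbers correlated at 0.017. Segment coordinates are from RefSeq's table of GRCm38.p6, which held all 101 V and 44 J segments found.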

Additional observations from a re-analysis of the deposited data

How the results depend on the processing

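The number of public chains was 1909 with clones of at least 2 reads, 2236 at equal depth and 1362 when keyed by nucleotide sequence, and 3151 to 3697 when any 1 library was left out, highest without WT 1. The log2 ratio of public read share, DKO over WT, turned to 0.0137 without DKO 2 (range -0.152 to 0.0137 over libraries left out). With replicate numbers as a block it was -0.04. The difference in public percent of chains, -0.952, was -0.628 at equal depth and -2.41 to -0.282 without 1 library (-0.282 without WT 1, -2.41 without WT 2, -1.86 without DKO 1); a block cannot move a mean difference in this balanced design. The insertion difference was -1.90 with V copies merged, -1.95 by nucleotide sequence, -1.98 weighted by reads and -1.64 to -1.61 without 1 library. It was -2.04 with the V and J ends moved back past every mismatch close to the join. That run was chosen after seeing the data, as were the runs without abundant chains and the drawn in-frame joins. The ratio of nucleotide sequences per chain, 1.59, was 1.46 with sequences of at least 10% of a chain's reads, 1.42 in chains of 5 to 20 reads and 1.46 to 1.48 without 1 library. Public chains called by edgeR numbered 0 with no filter on reads (11 at an unadjusted p under 0.05) and 0 with at least 20 reads (4 unadjusted), 1 by DESeq2, 2 with TMM, 2 with the replicate block and 0 to 2 without 1 library, 0 without WT 1 or WT 2 (a lone library is assumed to vary like the other genotype); over all chains tested 9, 0, 19, 100, 170 and 40 to 133 were called. At an unadjusted p under 0.05 edgeR had 776 of 99426 chains with no filter on reads, against 11 of 2343 public chains. With at least 20 reads it had 82 of 5861 chains, against 4 of 2086 public chains. With the block neither of the 2 chains called in the report passed (edgeR adjusted p = 0.262 and 0.195). The causes were not tested. Presence can rest on few reads: 16.7% of public chains had 1 read in at least 1 library.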
